A study of Bos taurus with 16 samples.

Results

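The genes of AMP-activated protein kinase (AMPK) were the 7 genes that encode its subunits, and each was found in the count and expression tables by its NCBI gene ID, so 7 of the 34109 listed genes were followed. PRKAA1 (gene ID 540404) and PRKAA2 (538954) encode the catalytic α1 and α2 subunits, PRKAB1 (534107) and PRKAB2 (512665) the scaffold subunits β1 and β2, and PRKAG1 (282324), PRKAG2 (504219) and PRKAG3 (511961) the nucleotide-binding subunits γ1, γ2 and γ3. RNA was sequenced from the round and the sirloin muscle of 8 neonatal Hanwoo calves, which gave 16 libraries in 4 groups of 4. The study describes both as muscle regions, with Semimembranosus among the round and Gluteus medius among the sirloin muscles. The dams of the 4 control calves are given as fed 100% of their nutritional requirement and the dams of the 4 treated calves as fed 150% of it from mid to late pregnancy. The study's methods set control intakes of dry matter, digestible nutrients and protein above the standard they quote. The treated intakes given there were less than 150% of the control intakes. According to the study's methods all calves were male and were euthanized right after birth, before any colostrum was taken. The round and sirloin libraries that carry the same diet and replicate number came from one calf, and a calf is named here by its diet and that number.

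AMPK is built from an α, a β and a γ subunit. It is switched on when ATP falls and AMP and ADP rise, which bind to the γ subunit, and when an upstream kinase such as LKB1 phosphorylates the α subunit; the active enzyme then slows anabolic steps such as fatty acid and glycogen synthesis and favors fat oxidation and glucose uptake. In adult skeletal muscle the α2 and β2 isoforms are the typical muscle forms, and γ3 is known as an isoform that is almost restricted to skeletal muscle, above all to fast glycolytic fibers, where it is known for its bearing on glycogen content.

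The libraries held 44473011 to 72446933 counts in all, and the AMPK genes had 366 to 10399 counts each in a library, so counting error was small against the spread between calves. Muscle fiber transcripts were abundant in all libraries, with a summed level of 58959 to 104120 TPM (transcript abundance scaled by gene length and library size) over 8 markers. Some libraries stood apart. In round muscle, slow fiber transcripts made up 82.6% and 60.0% of the slow and fast marker sum in treated calves 2 and 3, against 21.6% to 42.9% in the other 6 round libraries and 29.5% to 46.4% in sirloin muscle. The sirloin library of treated calf 4 held adipocyte transcripts at a summed 3777 TPM over 5 markers, against at most 15.0 TPM in any other library. The round library of control calf 2 held the most fibroblast transcripts, with a summed 1089 TPM over 4 markers. In bulk tissue of this kind, fewer cells of a type and less RNA per cell cannot be told apart.

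All 7 genes were expressed in all 16 libraries of neonatal muscle. Being scaled by gene length, TPM allows levels of different genes to be compared. PRKAB2 had the highest mean level over the 16 libraries, 37.2 ± 8.41 TPM (SD), followed by PRKAG2 with 28.8 ± 17.1, PRKAG3 with 24.6 ± 14.6, PRKAG1 with 21.1 ± 4.53, PRKAA2 with 19.7 ± 6.31, PRKAB1 with 14.6 ± 2.22 and PRKAA1 with 12.0 ± 3.79 TPM. Neighbors in this order overlapped: PRKAB2 was above PRKAG2 in 10 libraries, PRKAG2 above PRKAG3 in 10, PRKAG3 above PRKAG1 in 10, PRKAG1 above PRKAA2 in 9, PRKAA2 above PRKAB1 in 11 and PRKAB1 above PRKAA1 in 10 of 16. PRKAG2 was above PRKAG1 in only 7 of 16, although its mean was higher. The ends of the order did not overlap, since PRKAB2 exceeded PRKAA1, PRKAB1, PRKAG1 and PRKAA2 in 16 of 16 libraries. The order differed by muscle. In round muscle PRKAB2 averaged 38.9 TPM, followed by PRKAG2 with 27.2, PRKAG1 with 20.8, PRKAA2 with 17.9, PRKAG3 with 17.2, PRKAB1 with 15.0 and PRKAA1 with 12.7 TPM. In sirloin muscle PRKAB2 averaged 35.4 TPM and PRKAG3 was next with 31.9 TPM, before PRKAG2 with 30.3, PRKAA2 with 21.6, PRKAG1 with 21.3, PRKAB1 with 14.2 and PRKAA1 with 11.3 TPM. Among the 22877 genes with a count in any library, PRKAA1 stood at the 77.2nd percentile of mean TPM and PRKAB2 at the 90.0th. Summed over a class, the γ genes had 74.4 ± 17.8 TPM, the β genes 51.8 ± 9.05 TPM and the α genes 31.7 ± 8.15 TPM (SD, n = 16 libraries). The α sum was the lowest of the classes in 16 of 16 libraries, and the γ sum was above the β sum in 13 of 16.

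**Figure D1:**
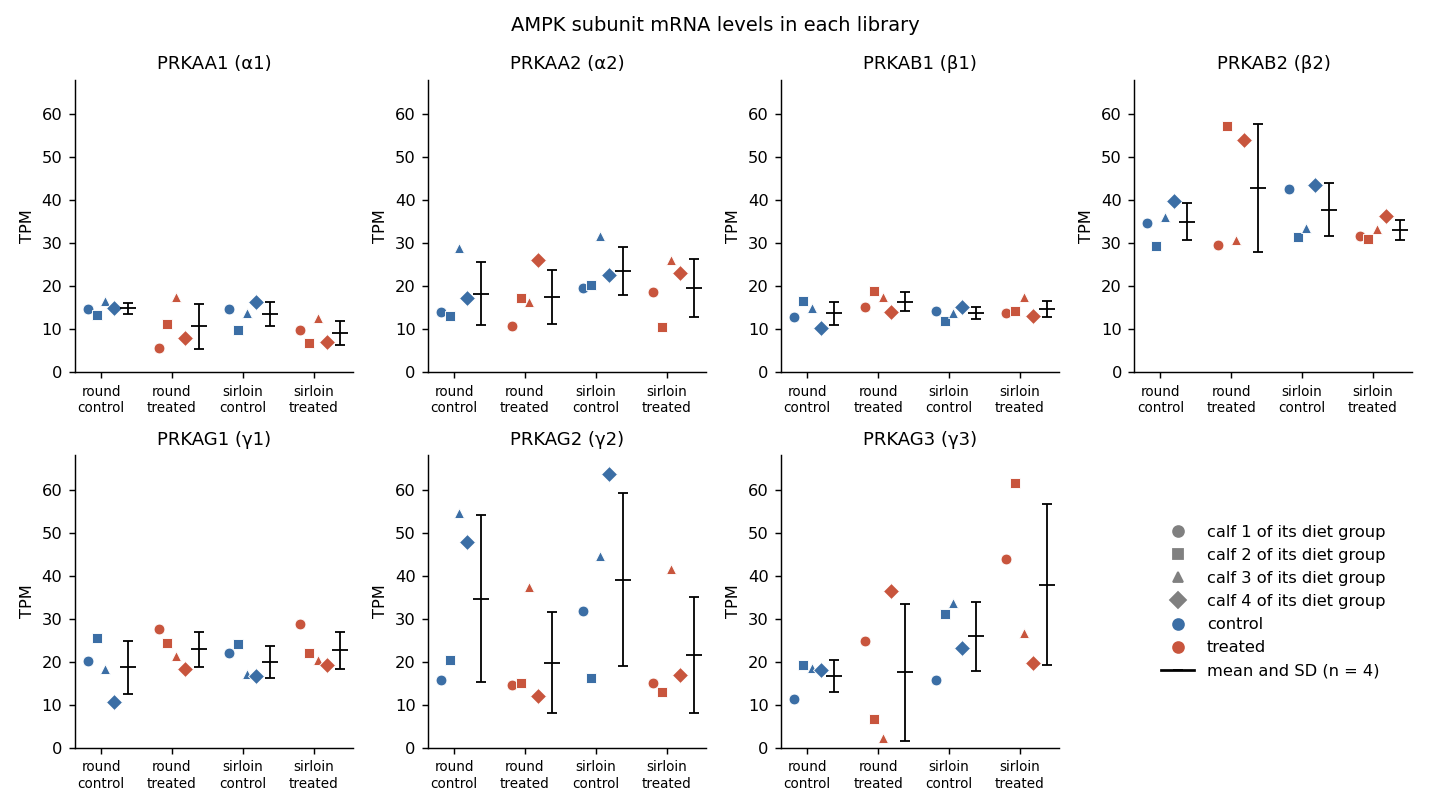
Level of each AMPK subunit gene in TPM (linear axis from 0, the same in every panel) in the 4 groups. Each symbol is 1 library, the symbol shape gives the calf number within its diet, and the bar gives the mean and SD of 4 libraries; PRKAB1 was the least variable gene, and PRKAG2 and PRKAG3 varied most between calves.

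The genes differed in how far they varied between libraries. PRKAB1 varied least, 1.83-fold between its lowest and highest library, and its coefficient of variation was 15.2%. PRKAB2, PRKAG1, PRKAA2 and PRKAA1 ranged from 1.95-fold to 3.08-fold. PRKAG2 varied 5.26-fold and PRKAG3 26.9-fold, with coefficients of variation of 59.5% and 59.6%. The γ class, which had the highest summed level, thus also had the isoforms with the widest spread.

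Among the catalytic subunits, α2 mRNA was the more abundant in most libraries. PRKAA2 had the higher TPM of the pair in 13 of 16 libraries, and its share of the summed α level was 61.8% ± 9.01 (SD, n = 16). The 3 exceptions were round libraries, those of control calves 1 and 2 and treated calf 3. In round muscle PRKAA2 measured 13.9, 13.0, 28.9 and 17.2 TPM in control calves 1 to 4 and 10.7, 17.1, 16.2 and 26.0 TPM in treated calves 1 to 4. In sirloin muscle it measured 19.6, 20.3, 31.5 and 22.7 TPM in the controls and 18.7, 10.5, 26.2 and 23.0 TPM in the treated calves. The diet groups overlapped in both muscles, and the highest control value was that of calf 3 in both.

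PRKAA1, the α1 gene that most tissues express, measured 14.8, 13.2, 16.4 and 14.8 TPM in round muscle of control calves 1 to 4 and 5.70, 11.2, 17.5 and 7.92 TPM in treated calves 1 to 4. In sirloin muscle the values were 14.6, 9.72, 13.7 and 16.3 TPM in the controls and 9.80, 6.85, 12.6 and 6.98 TPM in the treated calves. The 4 control round libraries lay close together, while the treated calves spread widely on both sides of them. In sirloin muscle the treated calves lay mostly below the controls, with overlap at treated calves 1 and 3.

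The β class had one isoform on top throughout. PRKAB2, the β2 gene, was above PRKAB1 in 16 of 16 libraries and made up 71.3% ± 4.92 of the β level (SD, n = 16), between 63.6% and 79.6%. In round muscle PRKAB2 measured 34.6, 29.4, 36.1 and 39.8 TPM in control calves 1 to 4 and 29.5, 57.3, 30.7 and 54.1 TPM in treated calves 1 to 4. In sirloin muscle it measured 42.5, 31.5, 33.6 and 43.4 TPM in the controls and 31.7, 31.0, 33.3 and 36.2 TPM in the treated calves. The round libraries of treated calves 2 and 4 were the only ones above 50 TPM, and the sirloin libraries of these calves held 31.0 and 36.2 TPM.

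PRKAB1, the β1 gene, stayed between 10.3 and 18.9 TPM in all libraries. Its round values were 12.9, 16.6, 14.8 and 10.3 TPM in the controls and 15.1, 18.9, 17.5 and 13.9 TPM in the treated calves, and its sirloin values were 14.2, 11.8, 13.7 and 15.2 TPM against 13.8, 14.3, 17.4 and 13.1 TPM. The groups overlapped in both muscles.

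The γ class had no fixed leading isoform. PRKAG2 had the highest γ level in 7 libraries, PRKAG3 in 5 and PRKAG1 in 4 of 16, and their mean shares were 37.8% ± 17.3, 31.9% ± 15.5 and 30.3% ± 10.8 (SD, n = 16). PRKAG1 led in no sirloin library and in 4 round libraries. PRKAG3 led in 4 sirloin libraries, 3 of them from treated calves, and in 1 round library.

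PRKAG1, the γ1 gene that is found in most tissues, measured 20.3, 25.6, 18.4 and 10.7 TPM in round muscle of the controls and 27.7, 24.3, 21.3 and 18.2 TPM in the treated calves. In sirloin muscle it measured 22.1, 24.2, 17.2 and 16.6 TPM in the controls and 28.8, 22.2, 20.4 and 19.1 TPM in the treated calves. Within each diet group the calves held the same order of TPM in both muscles, with control calf 4 the lowest of all in both. In counts scaled to library size, control calves 1 and 2 changed places between the muscles, at 22.1 and 22.5 in round and 23.4 and 22.6 in sirloin muscle.

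PRKAG2, the γ2 gene that is best known from heart muscle, measured 15.9, 20.3, 54.5 and 48.0 TPM in round muscle of control calves 1 to 4 and 14.7, 15.0, 37.3 and 12.1 TPM in treated calves 1 to 4. In sirloin muscle it measured 31.8, 16.1, 44.7 and 63.7 TPM in the controls and 15.1, 12.9, 41.6 and 16.8 TPM in the treated calves. Control calves 3 and 4 and treated calf 3 held the 3 highest values in both muscles, and the other 5 round libraries lay between 12.1 and 20.3 TPM. The muscles of a calf differed by at most 2.00-fold, whereas calves of one diet group differed by up to 3.44-fold in round and 3.95-fold in sirloin muscle.

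PRKAG3, the γ3 gene, measured 11.3, 19.3, 18.6 and 18.0 TPM in round muscle of control calves 1 to 4 and 24.9, 6.69, 2.29 and 36.5 TPM in treated calves 1 to 4. In sirloin muscle it measured 15.7, 31.0, 33.6 and 23.3 TPM in the controls and 43.8, 61.6, 26.6 and 19.8 TPM in the treated calves. In round muscle the treated calves held both the 2 highest and the 2 lowest values, so that the 4 controls lay between them. The 2 lowest values came from treated calves 2 and 3, the libraries rich in slow fiber transcripts, whose sirloin libraries held 61.6 and 26.6 TPM. The reference annotation places a long non-coding RNA gene, LOC101906064, over PRKAG3, but that gene had at most 27 counts in a library.

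**Figure D2:**
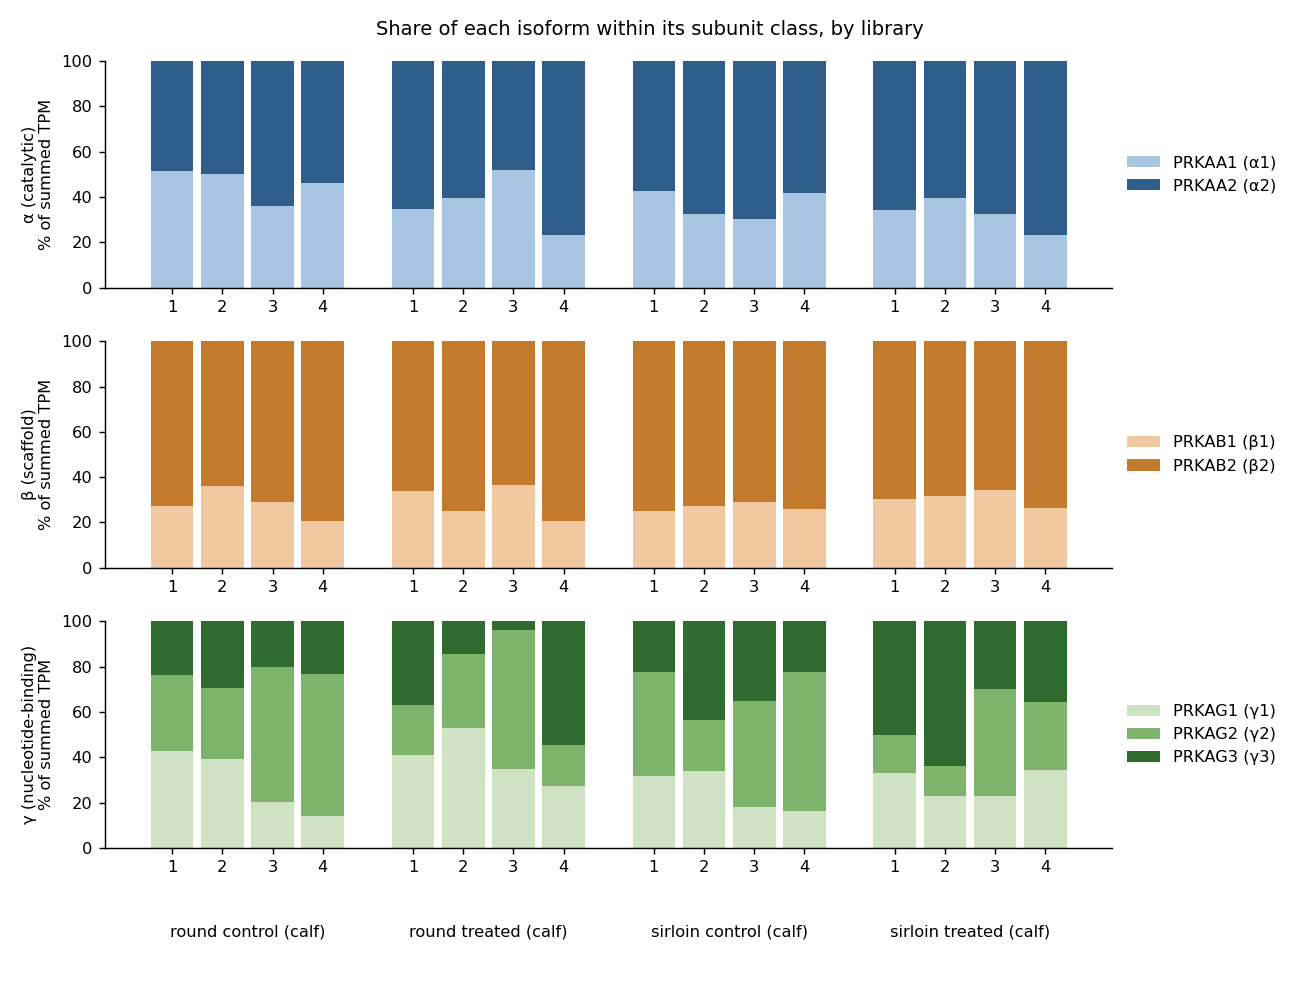
Share of each isoform in the summed TPM of its class, in percent (axes from 0 to 100), for the α, β and γ genes in the 16 libraries; the number under a bar is the calf within its diet. PRKAB2 held 63.6% to 79.6% of the β level throughout, whereas the γ mix changed from library to library, with PRKAG3 between 3.76% and 63.7%.

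Maternal diet was compared first in round muscle, 4 treated against 4 control calves. None of the 7 AMPK genes passed an adjusted p of 0.05 in edgeR's quasi-likelihood test (Benjamini-Hochberg over all genes), none had an unadjusted p under 0.05, and DESeq2 and limma-voom called none either. Over all 21677 genes tested, 4 genes or 0.0185% were called, and 4.41% had an unadjusted p under 0.05. The widest differences were those of PRKAG2, 1.87-fold lower in treated calves (log2 fold change -0.90, SE 0.48, 95% interval -1.95 to 0.15, adjusted p = 0.864), and PRKAA1, 1.50-fold lower (log2 fold change -0.59, SE 0.32, interval -1.28 to 0.10, adjusted p = 0.864). With a library left out, PRKAG2 ran from -1.51 without treated calf 3 to -0.59 without control calf 3, and PRKAA1 from -0.99 without treated calf 3 to -0.40 without treated calf 1. The other 5 genes had log2 fold changes between -0.18 and 0.22. That of PRKAG3 was 0.05 and had no stable direction, since it was -0.75 with limma-voom, -0.58 with limma on log2(TPM + 0.1) and -0.68 without treated calf 4. The interval of PRKAG3 ran from -1.39 to 1.50, so a change of 2-fold in either direction lay inside it, whereas that of PRKAB1 ran from -0.28 to 0.63. The median log2 fold change was 0.05 over the 7 genes and 0.02 over all genes tested. Without treated calves 2 and 3, which was tried after the values were seen, the log2 fold change of PRKAG3 moved from 0.05 to 0.88 (adjusted p = 0.943) and that of PRKAA1 from -0.59 to -1.17 (adjusted p = 0.943). The sum of 3 smooth muscle markers was 51.0 to 65.7 TPM in the round controls and 13.8 to 30.7 TPM in the treated calves. Only CNN1 among them set the groups apart, at 44.1 to 50.6 TPM against 8.86 to 20.6 TPM. For MYH11 and ACTG2 the groups overlapped. The part of these markers in the values of the AMPK genes was not tested.

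In sirloin muscle the comparison likewise called none of the 7 genes in edgeR, DESeq2 or limma-voom, beside 2 of 21776 genes or 0.00918% called by edgeR in all. PRKAA1 alone had an unadjusted p under 0.05, in each of these tools, beside 3.91% of all genes in edgeR. It was 1.68-fold lower in treated calves (log2 fold change -0.75, SE 0.27, 95% interval -1.34 to -0.16, adjusted p = 0.876 in edgeR). The level of PRKAG2 was 1.81-fold lower (log2 fold change -0.86, SE 0.47, interval -1.89 to 0.17, adjusted p = 0.876), that of PRKAB2 1.29-fold lower (-0.37, SE 0.19, interval -0.79 to 0.06) and that of PRKAG3 1.32-fold higher (0.40, SE 0.36, interval -0.40 to 1.19). Of the 7 genes 6 had a log2 fold change below 0, beside 10247 of all 21776 genes tested. The median was -0.37 over the 7 genes, which are not independent of each other, and 0.03 over all genes tested. One of the 6 was PRKAG1 at -0.0028, and in limma on log2(TPM + 0.1) PRKAG1 was at 0.18 and PRKAB1 at 0.090, which left 4 of 7 below 0. With a library left out, PRKAG2 ran from -1.40 without treated calf 3 to -0.56 without control calf 4, and PRKAG3 from 0.081 without treated calf 2 to 0.61 without treated calf 4. Red blood cell markers summed to 3.0 to 10.8 TPM over 4 markers in the control sirloin libraries and to 11.2 to 26.9 TPM in the treated ones. For each of the 4 markers alone the groups overlapped, with HBB at 1.18 to 6.29 TPM in the controls and 2.02 to 17.3 TPM in the treated calves. Adipocyte markers summed to 1.49 to 4.84 TPM in the controls and to 0.730 to 3777 TPM in the treated ones, with treated calf 4 the highest, and without that library the log2 fold change of PRKAA1 was -0.64. The part of red blood cells and of adipocytes in these values was not otherwise tested.

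The difference of the diet effect between the muscles was tested as well. No AMPK gene passed in edgeR, DESeq2 or limma-voom, where edgeR called no gene and DESeq2 4 genes or 0.0175%. None had an unadjusted p under 0.05, beside 2.78% of all genes in edgeR. The widest difference was that of PRKAB2, with a log2 fold change 0.49 higher in round than in sirloin muscle (SE 0.33, 95% interval -0.21 to 1.19, adjusted p = 1.00). The intervals of PRKAG2 and PRKAG3 spanned -1.61 to 1.48 and -2.14 to 1.40, so differences of more than 2-fold in either direction lay inside both intervals. With calf as a block no AMPK gene passed either, and the difference of PRKAG3 moved from -0.37 to -1.13.

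**Figure D3:**
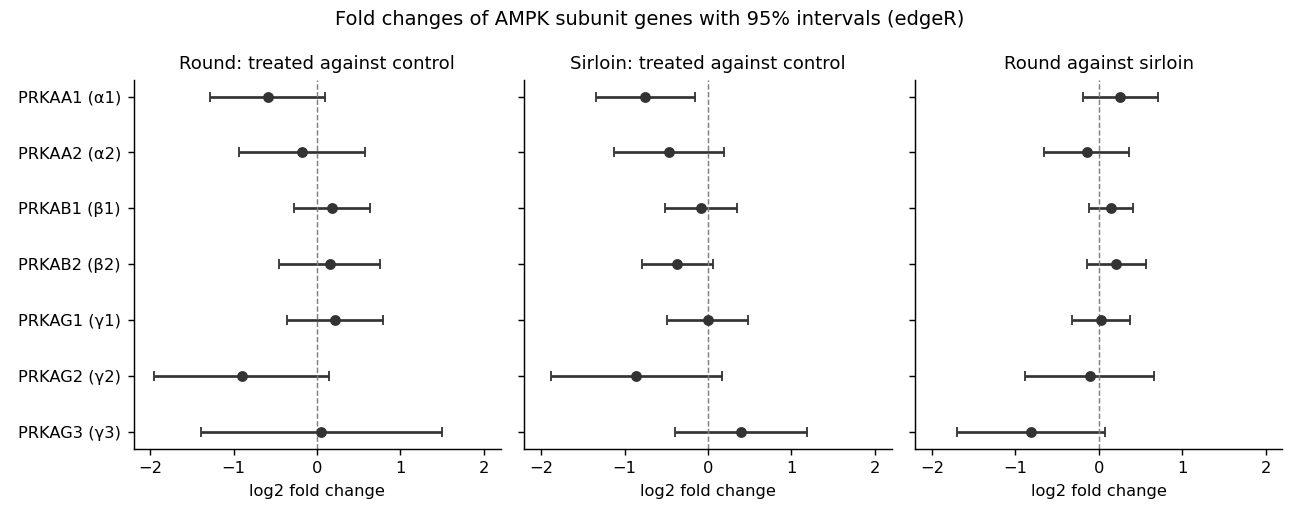
Log2 fold change of each AMPK gene (point) with its 95% interval (bar) from edgeR, for treated against control calves in round and in sirloin muscle and for round against sirloin muscle. The comparison of the muscles had no calf block, and the dashed line marks no change. Only the interval of PRKAA1 in sirloin muscle lay on one side of 0, and its adjusted p was 0.876.

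The muscles were then compared over all 16 libraries. The main fits did not use that both muscles came from the same calves. In these fits none of the 7 genes was called in edgeR, DESeq2 or limma-voom. PRKAG3 alone had an unadjusted p under 0.05 in them, in limma-voom but not in edgeR or DESeq2. In edgeR, 14 of 22877 genes or 0.0612% were called and 6.33% had an unadjusted p under 0.05, while DESeq2 called 0.372%. PRKAG3 showed the widest difference, 1.76-fold lower in round than in sirloin muscle (log2 fold change -0.81, SE 0.42, 95% interval -1.70 to 0.08, adjusted p = 0.821). Calf as a block in edgeR raised the genes called from 14 to 109 or 0.476%, and those with an unadjusted p under 0.05 from 1447 to 2555. In that fit, which uses the pairing, the log2 fold change of PRKAG3 was -1.15, against -0.81 without the block. Its adjusted p in edgeR was 0.313, against 0.821 without the block, and its unadjusted p with the block is not given here. Within calves, PRKAG3 was higher in sirloin muscle in 7 of 8, by 1.39-fold, 1.60-fold, 1.81-fold and 1.29-fold in control calves 1 to 4 and by 1.76-fold, 9.21-fold and 11.6-fold in treated calves 1 to 3, while treated calf 4 had a sirloin level 0.542 times its round level. By TMM-scaled counts, 6.19% of all genes were higher in sirloin muscle in 7 or 8 of 8 calves. Over the control calves alone the log2 fold change of PRKAG3 was -0.63 (adjusted p = 0.846). Without treated calf 2 it was -0.51 and without treated calf 4 it was -1.27. The other 6 genes had log2 fold changes between -0.15 and 0.26, and the interval of PRKAB1, the narrowest, ran from -0.12 to 0.41.

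The isoform mix was tested as the share of each isoform in the summed TPM of its class, with exact permutation tests over calves (two-sided, 20 tests in all, adjusted together). PRKAA2 held a smaller share of the α level in round than in sirloin muscle in 8 of 8 calves, 58.2% ± 10.1 against 65.4% ± 6.51 (SD, n = 8), a difference of -7.13 percentage points (exact sign-flip p = 0.0078, the smallest that 8 calves allow, adjusted p = 0.156). The result did not pass the adjustment. The 8 differences ran from -19.4 to -0.087 points, and 3 of them, those of treated calves 1, 2 and 4, were under 1 point in size. Taken from read counts instead of TPM the difference was -5.52 points (exact p = 0.0234), and without the pairing of muscles by calf the permutation p was 0.116. PRKAG1 held 34.0% ± 12.8 of the γ level in round and 26.6% ± 7.47 in sirloin muscle (exact p = 0.0859, adjusted p = 0.573), and without treated calf 4, whose sirloin library held the adipocyte transcripts, the exact p was 0.0469 for a difference of 9.50 points. With any other calf left out the difference was 4.21 to 8.79 points, with an exact p of 0.0625 to 0.172. PRKAG3 held 25.9% ± 15.2 in round and 37.9% ± 14.1 in sirloin muscle (exact p = 0.156, adjusted p = 0.629), higher in sirloin muscle in 5 of 8 calves. PRKAB2 held 71.4% ± 6.46 and 71.3% ± 3.19, a difference of 0.18 points with 8 calf differences between -8.87 and 6.69 points (exact p = 0.922).

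By diet, no share reached an exact p of 0.05, where 4 against 4 calves allow no p below 0.0286. In sirloin muscle PRKAB2 held 73.2% ± 1.72 of the β level in the controls and 69.3% ± 3.25 in the treated calves (SD, n = 4, exact permutation p = 0.0857, adjusted p = 0.573). Without treated calf 4, the difference moved from -3.90 to -5.29 points, with an exact p of 0.0286, and with any other library left out it was -4.64 to -2.68 points, with an exact p of 0.0857 to 0.171. In round muscle the PRKAB2 shares were 71.8% ± 6.35 and 71.1% ± 7.52. The share of PRKAG2 was 46.7% ± 16.7 in control and 33.4% ± 19.5 in treated calves in round muscle (exact p = 0.314) and 44.1% ± 16.1 against 26.9% ± 15.1 in sirloin muscle (exact p = 0.200). The share of PRKAG3 in sirloin muscle was 30.9% ± 10.3 in control and 44.8% ± 15.2 in treated calves (exact p = 0.200). The sirloin differences of PRKAB2 and PRKAG2, -3.90 and -17.2 points, were larger than the SD of either group, whereas the other differences given here were not larger than both SDs. A p above the threshold does not show that the shares were alike.

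Whether a calf's level in round muscle went with its level in sirloin muscle was examined after the values had been seen, over the 8 calves and for all 12315 genes with a mean CPM (counts scaled to library size) of at least 1. Over all these genes the median Pearson correlation was 0.590, 3.89% of them had an adjusted p under 0.05 by exact permutation and 32.9% had an unadjusted p under 0.05. PRKAG1 had r = 0.825 (exact p = 0.00203, adjusted p = 0.0507) and Spearman's rho = 0.976 (exact p = 0.000397, adjusted p = 0.0525), and r was 0.890 without the 2 calves farthest from the median. PRKAA1 had r = 0.743 (exact p = 0.0396, adjusted p = 0.137) and rho = 0.667. Its r was 0.914 without the 2 farthest calves and 0.529 with diet means removed. PRKAA2 had r = 0.553 (exact p = 0.156, adjusted p = 0.282) and rho = 0.857. The r of PRKAA2 was 0.216 without the 2 farthest calves and 0.541 with diet means removed. No AMPK gene passed the adjustment. PRKAG2 fell into separate high and low calves in round muscle, with fewer than 6 calves in each, so no correlation over all calves is given. PRKAB2 had r = 0.256 (exact p = 0.532) and rho = 0.190, PRKAB1 r = -0.084 (exact p = 0.870) and rho = 0.190, and PRKAG3 r = -0.17 (exact p = 0.694) and rho = -0.14. The correlations of PRKAG3 and PRKAB1 were below those of all but 4.03% and 5.73% of genes.

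**Figure D4:**
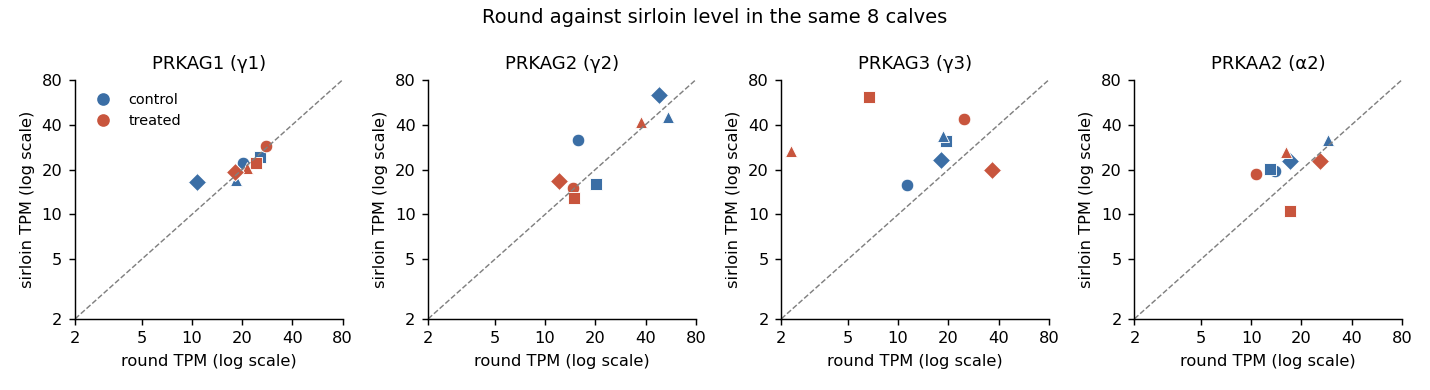
Level in sirloin against level in round muscle of the same calf, in TPM on log axes, for PRKAG1, PRKAG2, PRKAG3 and PRKAA2; each symbol is 1 of 8 calves, with its shape giving the calf number, and the dashed line marks equal levels. Control calves 3 and 4 and treated calf 3 were high in PRKAG2 in both muscles, and treated calves 2 and 3 had PRKAG3 at 6.69 and 2.29 TPM in round and at 61.6 and 26.6 TPM in sirloin muscle.

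Since γ3 is known as a fast fiber isoform, PRKAG3 was also set against the share of slow fiber transcripts in each muscle. In round muscle r was -0.71 (exact permutation p = 0.0521, adjusted p = 0.842 over 12302 genes) and rho was -0.52 (exact p = 0.197). Without treated calves 2 and 3, the farthest from the median, r was 0.044, so the relation rests on those libraries. In sirloin muscle, where the slow share covered a narrower range, r was 0.516 (exact p = 0.196, adjusted p = 0.924) and rho was 0.381 (exact p = 0.360), and r was -0.41 without the 2 farthest calves. None of the 7 genes passed the adjustment in either muscle, and in neither muscle did any gene pass it; 5.90% of genes in round and 5.23% in sirloin muscle had an unadjusted p under 0.05.

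**Figure D5:**
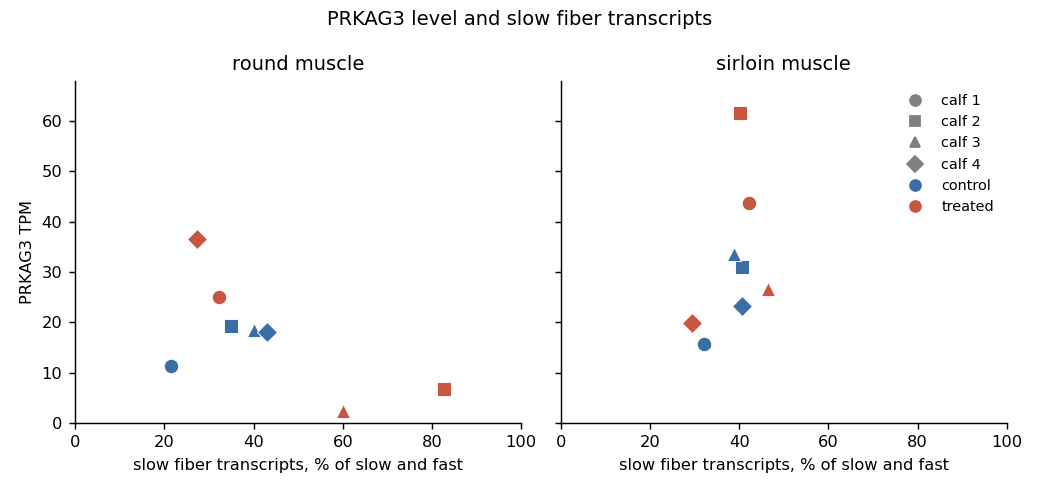
PRKAG3 level in TPM against slow fiber transcripts, in percent of the slow and fast marker sum, in the 8 round (left) and 8 sirloin libraries (right); color gives the diet and shape the calf number. The round libraries of treated calves 2 and 3 stand alone at 82.6% and 60.0% with PRKAG3 at 6.69 and 2.29 TPM.

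The genes around AMPK were followed in 4 lists of 66 genes in all. None of the 66 was called by edgeR in any of the 4 comparisons, or between the muscles with calf as a block. Unadjusted p-values between the muscles are given below from the edgeR fit without that block. Upstream of AMPK, 18 genes for activating kinases, their partners, phosphatases, sestrins and adiponectin receptors were measured. Those with the highest mean level were ADIPOR2, an adiponectin receptor, with 106 TPM and SESN1, a sestrin that responds to stress, with 82.4 TPM. The gene of LKB1, STK11, averaged 42.7 TPM and its adaptor CAB39 (MO25α) 65.3 TPM, while CAMKK2, the calcium-dependent AMPK kinase, averaged 8.82 TPM.

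By diet in round muscle, 3 of the 18 upstream genes had an unadjusted p under 0.05, all lower in treated calves, beside 4.41% of all genes, and in sirloin muscle 1 of 18 did, beside 3.91%. CAB39, singled out after its values were seen, was among them in both muscles. It measured 67.4, 106, 104 and 96.6 TPM in round muscle of the controls and 55.9, 39.7, 72.6 and 66.1 TPM in the treated calves (log2 fold change -0.75, SE 0.27, adjusted p = 0.864). The treated calves were mostly below, with overlap in TPM only between control calf 1 and treated calf 3. In sirloin muscle it measured 61.7, 52.8, 56.0 and 68.1 TPM against 51.1, 43.0, 51.5 and 52.1 TPM (log2 fold change -0.45, SE 0.19, adjusted p = 0.876). There the groups did not overlap in TPM. By TMM-scaled counts, the groups of 1.63% of all genes did not overlap in sirloin muscle. The others in round muscle were CAMKK1, which stayed at or below 0.347 TPM, and SESN2. SESN2, a further sestrin gene, was high in control calf 2 alone, at 8.85 TPM against 0.245 to 1.00 TPM in the other 15 libraries. Between the muscles 3 of the 18, namely CAMKK2, CAB39 and SESN2, had an unadjusted p under 0.05, all higher in round muscle, beside 6.33% of all genes. For CAMKK2 the log2 fold change was 0.48 (SE 0.14, adjusted p = 0.568 in edgeR). The list as a whole did not lean to round muscle. Its median log2 fold change was -0.16, against 0.0042 for all genes tested, and 10 of 18 genes were below 0, beside 11310 of 22877. By TMM-scaled counts, 1 of the 18, STRADA, was higher in sirloin muscle in 8 of 8 calves, beside 1.34% of all genes.

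Of 13 AMPK-related kinases, which apart from MELK are known to be activated by LKB1, MARK3 with 48.9 TPM and SIK1 with 22.2 TPM had the highest mean levels. None of the 13 had an unadjusted p under 0.05 by diet in either muscle. Between the muscles 2 did, SIK2 and NUAK2, both lower in round muscle, beside 6.33% of all genes, and NUAK2 averaged only 0.0463 TPM.

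Among 20 genes for AMPK substrates, PFKFB3, which makes the activator of glycolysis fructose-2,6-bisphosphate, averaged 360 TPM and GYS1, muscle glycogen synthase, 207 TPM. ACACB, the acetyl-CoA carboxylase that controls fat oxidation, averaged 204 TPM and ACACA, the form that serves fatty acid synthesis, 5.73 TPM. By diet, 2 of the 20 had an unadjusted p under 0.05 in round and 2 in sirloin muscle, beside 4.41% and 3.91% of all genes. In round muscle PFKFB3 was one of them, with 49.8, 142, 228 and 170 TPM in the controls and 203, 225, 204 and 866 TPM in the treated calves (log2 fold change 1.29, SE 0.57, adjusted p = 0.864 in edgeR). These groups overlapped, and treated calf 4 was far above the rest. In sirloin muscle ACACA was one of them, with 19.5 TPM in the library of treated calf 4, which held the adipocyte transcripts, and 2.66 to 7.27 TPM in the other 7 sirloin libraries. PPARGC1A, the coactivator PGC-1α that drives mitochondrial genes and was singled out after its values were seen, was one of them in both muscles. It measured 29.4, 9.97, 132 and 97.8 TPM in round muscle of the controls against 6.21, 16.7, 12.4 and 10.7 TPM in the treated calves, and 185, 11.7, 34.3 and 141 TPM against 10.6, 8.88, 19.2 and 17.7 TPM in sirloin muscle. Its groups overlapped only through control calf 2, which was low in both muscles. The log2 fold change was -2.71 (SE 0.66) in round and -2.90 (SE 0.72) in sirloin muscle, with adjusted p = 0.864 and 0.876 in edgeR, whereas DESeq2 gave adjusted p = 0.00753 and 0.0127. DESeq2 called 0.208% and 0.0597% of all genes in these comparisons, and no other list gene.

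Between the muscles, 4 of the 20 substrate genes had an unadjusted p under 0.05, namely TBC1D4, HDAC4, FOXO3 and CRTC2, all lower in round muscle, beside 6.33% of all genes. By TMM-scaled counts, 4 were higher in sirloin muscle in 8 of 8 calves, beside 1.34% of all genes. The latter were TBC1D4, HDAC4, FOXO3 and ULK1, named after their values were seen. TBC1D4, which restrains glucose transporter traffic until it is phosphorylated, measured 31.6 to 42.7 TPM in round and 38.1 to 83.5 TPM in sirloin muscle (log2 fold change -0.54, SE 0.16, adjusted p = 0.565 in edgeR). The median log2 fold change of the 20 genes was -0.25, against 0.0042 for all genes tested.

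The 15 genes for adenine nucleotide and phosphocreatine enzymes, which set the signals that the γ subunits read, were led by CKM, muscle creatine kinase, with 12827 TPM and CKMT2, its mitochondrial counterpart, with 973 TPM. None of the 15 had an unadjusted p under 0.05 by diet in round muscle. In sirloin muscle 2 of 15 did, CKMT2 and CKB, beside 3.91% of all genes. CKMT2 measured 1073, 956, 1075 and 1084 TPM in the controls and 859, 424, 825 and 690 TPM in the treated calves (log2 fold change -0.76, SE 0.25, adjusted p = 0.876 in edgeR). These groups did not overlap in TPM, beside 1.63% of all genes whose groups did not overlap by TMM-scaled counts. CKB, the brain type creatine kinase, was at 472 TPM in the sirloin library of treated calf 4, the library with adipocyte transcripts, and between 0.291 and 1.72 TPM in the other 15. The same pair had an unadjusted p under 0.05 between the muscles, beside 6.33% of all genes.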

How the data were processed

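RNA of the 16 libraries was sequenced on an Illumina instrument. Per the labels libraries were made with poly(A) selection, whereas the study's methods describe a stranded kit with removal of ribosomal and globin RNA. The count tables deposited by the authors hold raw read counts per gene, and the authors' normalized tables hold TPM, which are scaled by length and library. The submitters' processing notes list Trimmomatic, STAR, featureCounts and ARS-UCD1.2, the study's methods list HISAT2, Bowtie2 and StringTie, and which made the tables is not given in the sources used here. The authors' tables of fold changes and p-values were not used.

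Gene IDs were paired with symbols by a RefSeq table of ARS-UCD2.0. It matched 30762 of 34109 IDs (90.2%), all 7 AMPK genes and all 66 list genes. No coordinates or sequences are given, since the table's assembly is another one. The 7 genes and the lists were chosen with earlier results of these data known.

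Counts were tested with edgeR 4.0.16 (TMM factors, quasi-likelihood test) in R 4.3.3, over genes with a count in at least 1 library of the fit, with Benjamini-Hochberg adjustment over all genes and a threshold of 0.05. The SE is the log2 fold change over the square root of F. Diet was tested per muscle, and the muscles and the difference of the diet effects over 16 libraries in 4 groups without a block. DESeq2 1.42.0 and limma 3.58.1 were alternatives. Shares were tested with exact permutation over calves. The tests were run on simulated counts in which 200 genes were changed by a log2 fold change of 2, without a calf effect shared by the muscles. That simulation does not cover changes as small as those of the AMPK genes. All 7 genes were named, and from the lists, by rule, those past the threshold (none in edgeR) and the 2 of highest mean TPM. The other list genes were named after their values were seen. Replicates are calves. The replicate and sample numbers of the labels tie the muscles of a calf, and the deviations of a calf's muscles from their group means correlated by 0.351 to 0.767 over 12326 genes. The same number in the other diet did not tie calves (-0.29 to 0.309).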

Additional observations from a re-analysis of the deposited data

Results flagged for a closer look

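In 48 groups of 4 libraries, made of the TPM of 7 genes and the shares of 5 isoforms, 3 groups held a library whose gap to its nearest neighbor took more of the group's range than Dixon's 95% critical value, which chance gives in about 1 of 20 groups. PRKAG2 in round muscle of treated calves held calf 3 at 37.3 TPM, against 12.1 to 15.0 TPM in the others. PRKAG2 in sirloin muscle of treated calves held the same calf at 41.6 TPM, against 12.9 to 16.8 TPM. PRKAG3 in round muscle of control calves held calf 1 at 11.3 TPM, against 18.0 to 19.3 TPM. That library also had the lowest slow fiber share of the 16, 21.6%, and the part of this in the value was not tested. The rule was applied to TPM and shares, not to counts scaled to library size. In such counts PRKAG3 of control calf 1 was at 32.4 in round muscle, against 45.3 to 50.8 in the other controls. PRKAG2 of treated calf 3 was at 60.6 in sirloin muscle, against 17.0 to 26.8 in the other treated calves. In both groups the gap took less of the range than in TPM. In round muscle PRKAG2 of treated calf 3 was at 57.0, against 17.1 to 21.8. The interaction test of edgeR called no AMPK gene, without or with calf as a block, which does not show that the diet effects were alike.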

How the results depend on the processing

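Over 427 alternatives for the log2 fold changes of the 7 genes, 394 kept the direction and none gave an adjusted p under 0.05 (lowest 0.313). In these alternatives, as in edgeR, no AMPK gene was called. The count of all genes called moved more. For diet in round muscle it was 4, and 45 with DESeq2, 1 with limma-voom, 2 with the replicate block, 1 and 0 with limma on log2(TPM + 0.1) and log2(TPM + 1), 2 without treated calves 2 and 3, and 0 to 3 with a library left out. For diet in sirloin muscle it was 2, and 13, 0, 0, 1 and 0 in the same order, and 0 to 1 with a library left out. For round against sirloin it was 14, and 85 with DESeq2, 23 with limma-voom, 109 with calf as replicate block and 5 over control calves. For the difference of diet effects it was 0, and 4 with DESeq2 and 1 with the calf block.

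Log2 fold changes of the 7 genes changed sign in 33 of these alternatives, and the cause was not tested. PRKAG3 by diet in round muscle was 0.05, and -0.75 with limma-voom, -0.67 with the replicate block, -0.58 and -0.48 with limma on log2(TPM + 0.1) and log2(TPM + 1), -0.58 with a filter on low TPM, and -0.68 to 0.41 with a library left out. In sirloin muscle PRKAB1 was -0.088, and 0.090, 0.085 and 0.090 in the TPM fits, and PRKAG1 was -0.0028, and 0.18, 0.17 and 0.18 in these fits, 0.0040 with filterByExpr, and -0.15 to 0.089 with a library left out. With a library left out, PRKAA2 and PRKAB2 by diet in round muscle ran from -0.52 to 0.13 and from -0.057 to 0.28, PRKAG1 by muscle from -0.00060 to 0.069, and the differences of diet effects from -0.013 to 0.39 for PRKAA1, -0.23 to 0.18 for PRKAG2 and -1.30 to 0.24 for PRKAG3. Over control calves PRKAB2 and PRKAG1 by muscle were -0.041 and -0.070, and without treated calves 2 and 3 the differences of diet effects were -0.34 for PRKAA1 and 0.66 for PRKAG3.

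For the shares, the PRKAA2 difference by muscle was -7.13 points with a permutation p of 0.116 without replicate block, and -9.29 points over control calves, where 4 calves allow no exact p below 0.125. PRKAB2 by diet in round muscle was 1.04 points without treated calves 2 and 3 and -3.50 to 1.85 with a library left out, PRKAG3 there was -0.28 as a log2 ratio and -5.84 to 11.1 with a library left out, and PRKAB2 in sirloin muscle ran from -5.29 to -2.68. By muscle PRKAB2 was -0.030 points from read counts, -1.43 over control calves and -0.75 to 1.47 with a calf left out, and PRKAG1 ran from 4.21 to 9.50. For the differences of diet effects, PRKAG1, PRKAG2 and PRKAG3 were -3.45, -6.26 and 9.71 points without treated calves 2 and 3, and PRKAG2 ran from -0.94 to 10.2 with a calf left out. The correlation of the muscles was 0.068 for PRKAG3 without the 2 farthest calves and -0.51 to 0.120 with a calf left out, and for PRKAB1 0.190 by Spearman, 0.039 with diet means removed and -0.43 to 0.303 with a calf left out. PRKAG3 against slow fiber share was 0.044 in round and -0.41 in sirloin muscle without the 2 farthest calves. Same numbers across diets did not mark pairs, and the block by number left every AMPK gene uncalled. With 4 calves a group, the intervals of PRKAG2 and PRKAG3 allow differences over 2-fold.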

Other observations

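The genes whose level moved most like that of an AMPK gene over the 16 libraries, after the mean of each muscle was removed, were found among 11394 genes and are given as a description, since libraries of a calf are not independent. For PRKAG2 they were ABHD3 (r = 0.916), CPEB4, a regulator of translation (r = 0.908), and HECA (r = 0.907). For PRKAG3 they were SMYD2, a lysine methyltransferase (r = 0.847), MYH13, a myosin heavy chain of eye muscles (r = 0.845), and PSMC2, a proteasome subunit (r = 0.840). For PRKAA2 they were STK17B (r = 0.912), DLD, a subunit of mitochondrial dehydrogenase complexes (r = 0.912), and ATAD1 (r = 0.907), and for PRKAA1 TSSK3 (r = 0.892), ZBTB43 (r = 0.889) and CCSER2 (r = 0.887). For PRKAB2 they were CACNA2D1, a calcium channel subunit of muscle (r = 0.909), MSRB3 (r = 0.904) and CTNNA3 (r = 0.898), for PRKAB1 PITPNM2 (r = 0.791), ABCA5 (r = 0.780) and FBXO42 (r = 0.766), and for PRKAG1 TRAPPC1 (r = 0.909), ZNF219 (r = 0.897) and TECR (r = 0.893). Among the AMPK genes themselves the highest of the 21 pairs was PRKAA1 with PRKAG2 (r = 0.798), and the lowest were PRKAB1 with PRKAG3 (r = -0.53) and PRKAG1 with PRKAG2 (r = -0.52). Diet means were not removed for these r values. PRKAG2 was high in control calves 3 and 4 and treated calf 3 in both muscles, apart from the other calves in round muscle. The part of those calves in all r values of PRKAG2 given here was not tested.

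The ratio of CPM to TPM, divided by its median over genes in each library, follows the transcript length that the quantification assigned to a gene. It varied by 1.25-fold over the libraries for PRKAG2, more than for 93.0% of 9408 genes with at least 100 counts in every library, and by 1.15-fold for PRKAG3, more than for 87.4%. For PRKAG1 it varied more than for 6.62% of genes. For PRKAG3 the ratio was lowest, 1.36, in the round libraries of treated calves 2 and 3, the libraries with its lowest TPM, and the cause was not tested.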
